A study of Mus musculus with 9 samples.

Results

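YAP (encoded by Yap1), TAZ (encoded by Wwtr1) and 8 genes known as their transcriptional targets or partners were followed through sphere culture of mouse embryonic lung cells. The 10 genes were chosen by name from the gene count table by a rule that uses no measured value, although earlier results of these data were known when the list was made. They are the coactivators Yap1 and Wwtr1, the target products Ccn1, Ccn2, Ankrd1 and Crim1, and the junction and feedback proteins Ajuba, Amotl1, Amotl2 and Lats2. They are 10 of 27179 genes in the table, and all 10 passed the filter on low counts and were tested. Lungs of C57/B6 embryos (E11.5) were dissociated and left on ordinary plastic for a short time, where mesenchymal cells attach. The unattached cells were grown as floating pneumospheres in medium with 20 ng/ml basic FGF, 10 ng/ml EGF and heparin, at 5% oxygen and 10% CO2. Poly(A) RNA was sequenced on days 3, 7 and 10 of culture, with 3 libraries a day. The cultures were split on days 3 and 7 and replated at 50000 cells/ml, and all groups shared strain, medium and oxygen. There was no treated or genetically altered group, so the day of culture is the only factor, and elapsed time and passage cannot be told apart.

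YAP and TAZ are closely related coactivators without a DNA-binding domain of their own. The Hippo kinases, MST (Stk3 and Stk4) acting on LATS (Lats1 and Lats2), phosphorylate them and hold them in the cytoplasm. When the kinases are inactive, YAP and TAZ enter the nucleus, join the TEAD factors and raise transcription of genes such as Ccn1 and Ccn2. Cell attachment, tension in the actin skeleton and cell density are known to act on this switch, and in the developing lung YAP is known for its role in airway branching and epithelial patterning. RNA levels measure neither the phosphorylation nor the position of the proteins, so activity of YAP or TAZ was not measured here.

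Library totals ran from 20716878 to 30466712 counts, and a count of 0 allows at most 0.145 CPM (counts scaled by the library total) in any library. The labelled source is embryonic lung, but 3 of 10 lung epithelial markers (Nkx2-1, Foxa1 and Shh) had no count in any library. The summed level of all 10 was between 1.17 and 1.98 CPM on day 3, between 0.0390 and 0.699 on day 7 and between 0.106 and 0.320 on day 10. The 7 mesenchymal markers summed to between 6770 and 7143 CPM on day 3. They summed to between 15320 and 18400 CPM on day 7 and to between 20790 and 24050 on day 10. Most of this was Col1a1 (means of 3856, 9495 and 11700 CPM) and Col1a2 (1420, 4502 and 6699 CPM). All 7 rose by day 10 in the test described below, against 29.5% of all genes tested. By the ratio of day means, these rises ranged from 1.235 times for Vim to 40.24 times for Prrx1. The 6 endothelial markers summed to between 177 and 207 CPM on day 3, between 245 and 337 on day 7 and between 126 and 136 on day 10. Most of that sum was Emcn (means of 111.2, 184.5 and 108.9 CPM) and Kdr (59.2, 91.7 and 12.8 CPM). By day 7, 1 of the 6 rose and 2 fell in the test described below, against 22.8% and 19% of all genes tested. From day 3 to day 7, mean Tek went from 6.69 to 3.19 CPM and mean Erg from 7.41 to 2.02. The means of Pecam1 (3.17 and 3.15) and Cdh5 (6.24 and 6.36) moved little. Erythroid markers went from at least 1050 CPM on day 3 to at most 0.440 on day 10, neuronal and glial markers from at least 112 to at most 14.7, mesothelial markers from at least 60.4 to at most 26.0, and leukocyte markers were at most 12.7 on any day. The values below are therefore those of cultures rich in mesenchymal transcripts, and the part of this shift in any result was not tested. In RNA from whole cultures, fewer cells of a type and less RNA per cell cannot be told apart.

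The TEAD factors are known to bind the bases GGAATG, which read as CATTCC where the motif is on the opposite strand. This motif was searched on both strands in the 250 bases before each RefSeq transcript start (build GRCm38.p6). RefSeq windows were matched for 9 of the 10 genes, and 7 of these 9 held at least 1 match: Yap1, Wwtr1, Ccn1, Ankrd1, Crim1, Ajuba and Amotl2. Of all 27025 genes with a window, 14.4% held a match. The windows of Amotl1 and Lats2 held none, which says only that these letters are absent there. The window of Ccn1 is shown whole, since Ccn1 is the textbook target whose level moved furthest among the 9, with the match in capitals and written 5′ to 3′ along the gene. It lies at chr3:145649986-145650235 on the minus strand, directly upstream of the gene, and the match starts 103 bases before the transcript start.
Ccn1 upstream window: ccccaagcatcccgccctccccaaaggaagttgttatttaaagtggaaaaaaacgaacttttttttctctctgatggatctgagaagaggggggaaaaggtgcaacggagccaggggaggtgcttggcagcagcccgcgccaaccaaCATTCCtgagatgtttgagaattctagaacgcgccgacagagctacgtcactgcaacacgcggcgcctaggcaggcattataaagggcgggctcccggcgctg

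The 30 bases around the match are shown for the pair of coactivators, whose levels moved in opposite directions. They are also shown for Ajuba, which fell and whose window holds 2 matches. The window of Ankrd1, which was not called in any comparison of days, also holds 2 matches and is not shown. The sites lie at chr9:8004720-8004749 for Yap1, at chr3:57576029-57576058 for Wwtr1, and at chr14:54577830-54577859 and chr14:54577808-54577837 for Ajuba, all on the minus strand and upstream of the transcribed region.
Yap1: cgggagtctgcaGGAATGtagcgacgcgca
Wwtr1: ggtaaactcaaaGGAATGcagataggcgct
Ajuba, first match: cgttgatggataCATTCCacagtgcccctc
Ajuba, second match: tgcccctccgcgCATTCCaactgtaaacaa
The matches start 141 bases before the transcript start in Yap1, 136 bases before it in Wwtr1, and 186 and 164 bases before it in Ajuba. Across all 32817 windows, 12.6% held a match and 1.02% held 2 or more. A match of this kind is a description of the sequence and not evidence of binding.

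Between day 3 and day 7, 5 of the 10 genes rose (Ccn2, Ccn1, Wwtr1, Lats2 and Amotl2), 2 fell (Ajuba and Yap1) and 3 did not pass the test (Ankrd1, Amotl1 and Crim1). A gene was called where its adjusted p was under 0.05 (edgeR's quasi-likelihood test with Benjamini-Hochberg adjustment over all 14940 genes tested). Among all genes tested, 22.8% rose and 19% fell in that comparison, 41.8% in all. The median log2 change of the 10 genes was 0.76, and that of all genes tested was 0.00027. The extent of the rises ranged from 1.79 times for Amotl2 to 41.2 times for Ccn2, by the ratio of day means. For 5 of the genes all day 7 libraries lay above all day 3 libraries, for 2 all lay below, and for 3 the days overlapped. Among all genes tested, 60% had no overlap.

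**Figure D1:**
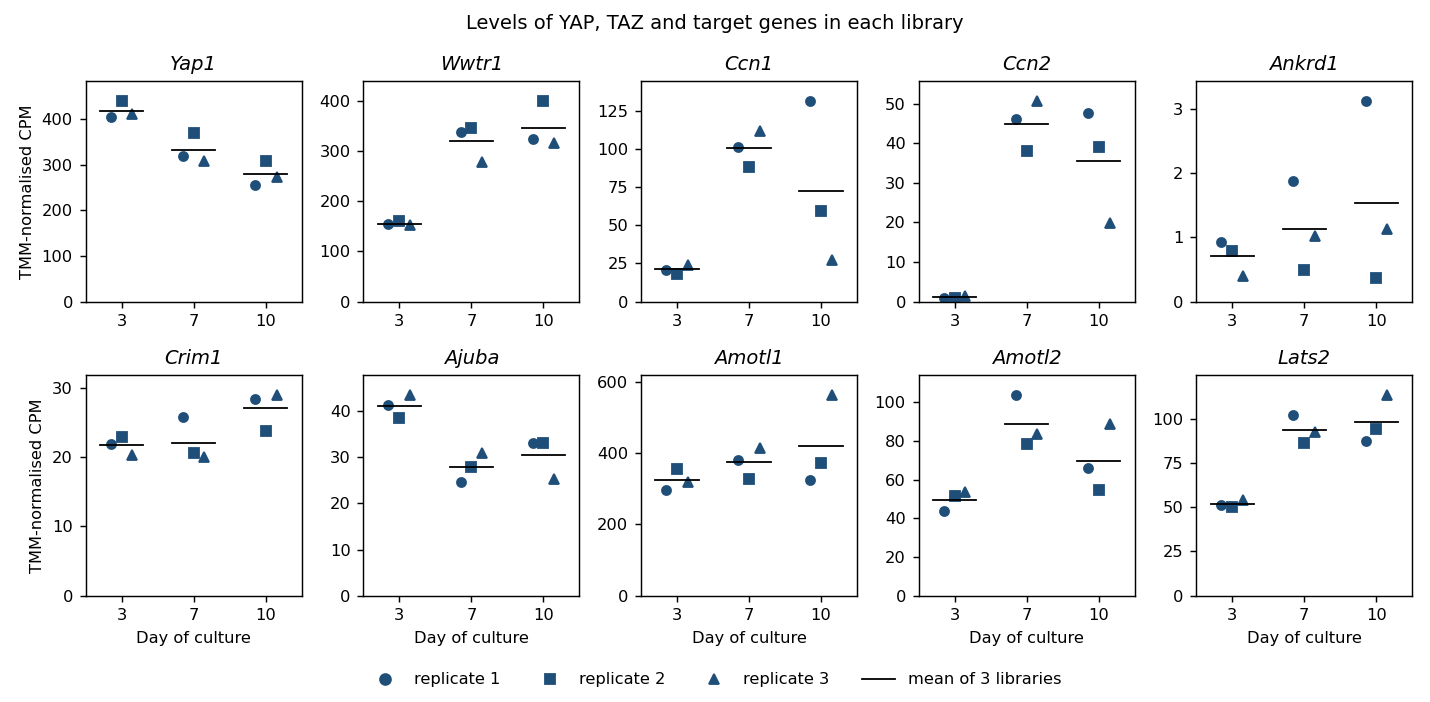
TMM-normalised CPM (vertical axis, linear, starting at 0, with its own scale in each panel) of the 10 genes on days 3, 7 and 10 of culture (horizontal axis). Each marker is 1 library, its shape gives the replicate number, and the line is the mean of 3 libraries; Ccn2 goes from about 1 CPM on day 3 to between 38.0 and 50.7 on day 7, while Yap1 goes down from a mean of 419 to 280.

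The coactivators moved in opposite directions. Yap1 (Entrez 22601, chr9:7931999-8004638, minus strand, build GRCm38, the same assembly as mm10) had 404.9, 440 and 412.1 CPM in the day 3 libraries. These are TMM-normalised values, scaled for library size and composition. It had 319.2, 370.2 and 308.5 CPM on day 7 and 256, 309.5 and 273.6 CPM on day 10. Every library of day 7 and day 10 lay below every library of day 3, and days 7 and 10 overlapped. The mean fell from 419 ± 18.6 CPM (SD, n = 3) to 333 ± 32.9 and 280 ± 27.3 CPM. Yap1 fell by 0.33 on the log2 scale to day 7 (SE 0.10, adjusted p = 0.0187) and by 0.58 to day 10 (SE 0.10, adjusted p = 0.000559). The smaller of these changes lost its call without day 3 replicate 2 (adjusted p = 0.0716), without day 7 replicate 1 (0.0645) or without day 7 replicate 3 (0.0733). The antisense gene Gm20416 lies within Yap1, and its reads cannot be told from those of Yap1 if strand was not used.

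Wwtr1 (Entrez 97064, chr3:57455644-57575910, minus strand) encodes TAZ, the second coactivator. Its levels were 154.2, 160.4 and 152.6 CPM on day 3, 339, 345.6 and 277.7 CPM on day 7, and 323.8, 400.2 and 317.3 CPM on day 10. All 6 later libraries lay above the day 3 libraries, which differed little among themselves. Wwtr1 rose by 1.04 on the log2 scale to day 7 (SE 0.11, adjusted p = 7.24e-05), and stood 1.16 above day 3 on day 10 (SE 0.11, adjusted p = 1.9e-05). Between day 7 and day 10 its log2 change was 0.11 (adjusted p = 0.576), and the libraries of those days overlapped.

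Per kilobase of exon, which allows the levels of different genes to be compared, Yap1 stood above Wwtr1 on day 3 and below it afterwards. Yap1 had 45.3 ± 2.01 CPM per kilobase on day 3, 35.9 ± 3.56 on day 7 and 30.2 ± 2.94 on day 10 (SD, n = 3). Wwtr1 had 32.6 ± 0.857, 67.1 ± 7.83 and 72.6 ± 9.65 CPM per kilobase on the same days. The ratio of Wwtr1 to Yap1 was 0.738, 0.706 and 0.718 in the day 3 libraries, 2.057, 1.809 and 1.744 on day 7, and 2.45, 2.505 and 2.247 on day 10. No library of a day reached the range of another day, and the log2 ratio rose by 1.37 from day 3 to day 7 and by 0.36 from day 7 to day 10. An exact two-sided permutation test on each pair of days gave p = 0.1, the smallest value that 3 libraries against 3 allow. With the longest transcript of each gene as its length, the mean ratio was 0.418, 1.09 and 1.39 on days 3, 7 and 10. Wwtr1 thus also exceeded Yap1 on days 7 and 10 by that length. On day 7 the margin was narrow, with ratios of 1.194, 1.05 and 1.012, so its size there depends on the length used.

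**Figure D2:**
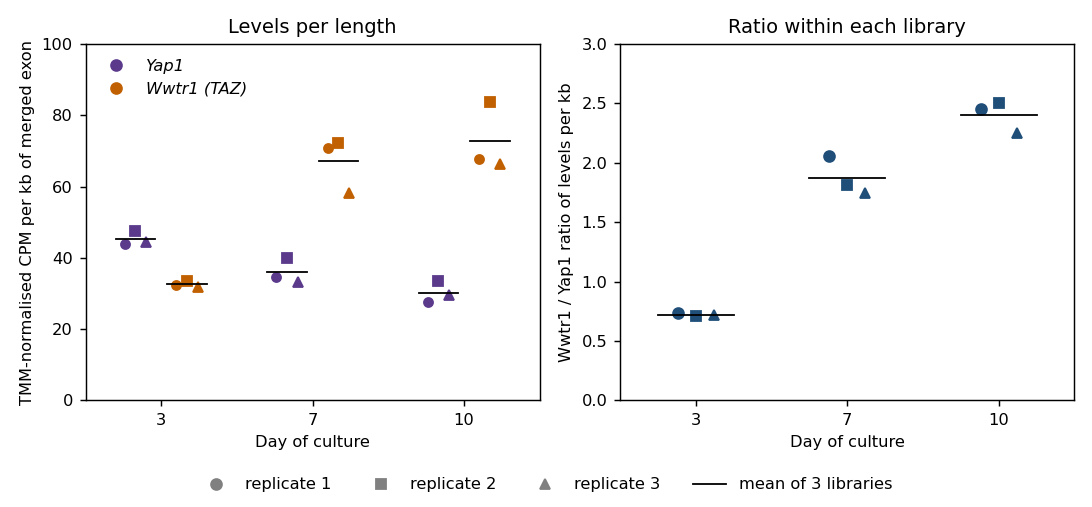
Levels of Yap1 and Wwtr1 per kilobase of merged exon, as TMM-normalised CPM per kilobase, on days 3, 7 and 10, with the ratio of Wwtr1 to Yap1 in each library. Each marker is 1 library, its shape gives the replicate number, and each horizontal line is a mean of 3 libraries; the ratio is below 1 in all 3 libraries of day 3 and above 1 in the other 6.

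Of the 8 genes for the TEAD factors and their Vgll cofactors, Vgll1 and Vgll2 had no counts in any library and 6 were tested. None rose and 3 fell by day 10 (Tead2, Vgll3 and Vgll4), while 1, Tead2, fell by day 7. Among all genes tested, 27.2% fell by day 10 and 19% by day 7. Tead2, the TEAD factor with the highest level per kilobase in these libraries (68.0 CPM per kilobase on day 3), went from 326 ± 21.1 CPM on day 3 to 217 ± 7.51 on day 7 and 182 ± 19.1 on day 10. Its log2 change from day 3 to day 10 was -0.84 (SE 0.09, adjusted p = 3.08e-05). Tead1 stood at 133, 141 and 153 CPM on the 3 days and Tead3 at 64.5, 69.0 and 71.6, and neither passed the test in any comparison of days. Without day 10 replicate 3, both passed from day 3 to day 10 (Tead1 0.28, adjusted p = 0.0376, and Tead3 0.25, adjusted p = 0.044). Tead4 was near 1 CPM on each day. The call for Vgll3 (log2 change -0.49, adjusted p = 0.044) was lost in 7 alternatives, 6 of which left out 1 library (each of day 3, day 7 replicate 1, and day 10 replicate 2 or 3), with adjusted p up to 0.166. The median log2 change of the 6 genes was -0.31 by day 10.

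Among the 19 other Hippo kinases, scaffolds and upstream regulators, 5 rose and 5 fell by day 10, against 29.5% and 27.2% of all genes tested. Beside Lats2, which is described with the feedback genes, the log2 change of the core kinases from day 3 to day 10 was 0.37 for Lats1 (adjusted p = 0.00162), 0.33 for Stk3 (adjusted p = 0.00343) and -0.30 for Stk4 (adjusted p = 0.0137). Nf2, which encodes the scaffold merlin, fell by 0.27 on the log2 scale (adjusted p = 0.00453). The adaptor genes Sav1, Mob1a and Mob1b did not pass the test, although Sav1 did without day 10 replicate 3 (0.17, adjusted p = 0.0454) and Mob1a without day 10 replicate 1 (0.22, adjusted p = 0.0349). Amot, the angiomotin relative of Amotl1 and Amotl2, made the largest change of this list, from 830 ± 77.8 CPM on day 3 to 192 ± 12.9 on day 7 and 134 ± 7.88 on day 10, a log2 change of -2.63 from day 3 to day 10 (SE 0.10, adjusted p = 8.31e-08). Frmd6, an upstream membrane protein, rose from 43.2 ± 2.15 to 119 ± 5.60 CPM (log2 change 1.47, SE 0.09, adjusted p = 1.41e-06).

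The matricellular genes Ccn2 and Ccn1 made the 2 largest rises of the 10 genes. Ccn2 (Entrez 14219, chr10:24595442-24598683, plus strand) encodes connective tissue growth factor, a secreted protein that promotes matrix production. It had 0.930, 1.03 and 1.32 CPM in the day 3 libraries, 46.2, 38.0 and 50.7 CPM on day 7, and 47.6, 39.0 and 19.9 CPM on day 10. Every later library was far above every day 3 library, and day 10 replicate 3 was the lowest of the later ones. The log2 change was 5.36 to day 7 (SE 0.36, adjusted p = 7.08e-06) and 5.02 to day 10 (SE 0.36, adjusted p = 4.31e-06). Only 19 of the 14940 genes tested (0.127%), Ccn2 included, had a log2 change at least as large between days 3 and 7, called or not. An antisense gene, Gm15270, overlaps Ccn2, and whether counting used strand is not given in the sources used here, so reads from the pair cannot be told apart.

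Ccn1 (Entrez 16007, chr3:145646971-145649985, minus strand) encodes Cyr61, a secreted relative of Ccn2 that binds integrins. Its levels were 21.0, 18.3 and 23.9 CPM on day 3, 101, 88.1 and 112 CPM on day 7, and 131, 59.1 and 27.3 CPM on day 10. All later libraries were above the day 3 libraries, but the day 10 libraries spread over a wide range, with replicate 3 close to day 3. The log2 change was 2.25 to day 7 (SE 0.47, adjusted p = 0.00506) and 1.78 to day 10 (SE 0.47, adjusted p = 0.0101). Leaving out day 10 replicate 1 lowered the change to day 10 to 1.04 (adjusted p = 0.0109), and leaving out day 10 replicate 3 raised it to 2.18 (adjusted p = 0.00078). Between days 7 and 10 the log2 change was -0.47 (adjusted p = 0.568), and it was -1.21 (adjusted p = 0.0351) without day 10 replicate 1.

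**Figure D3:**
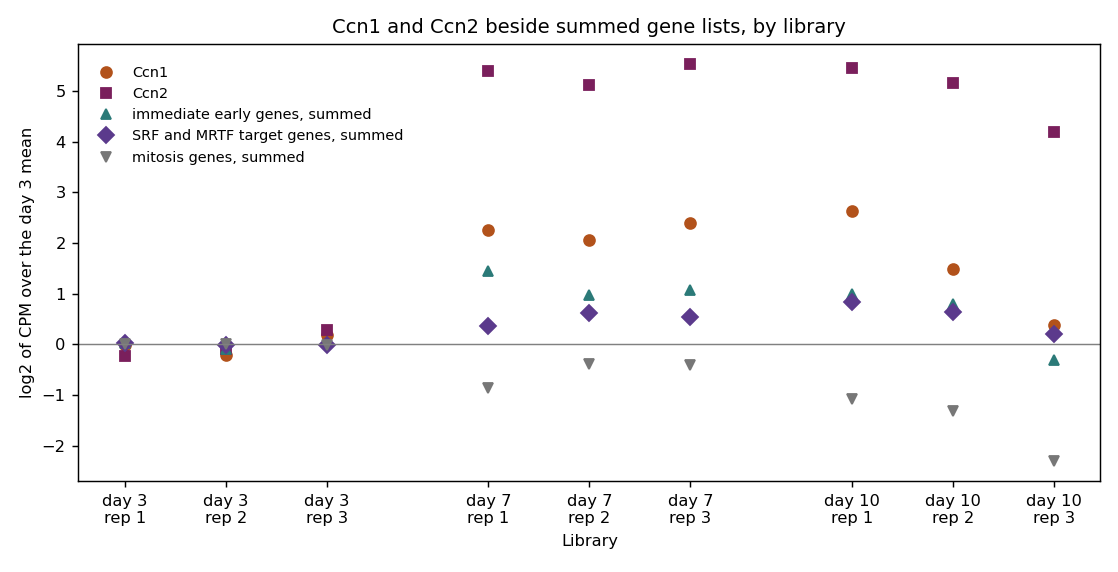
Log2 of the CPM of Ccn1, of Ccn2 and of the summed immediate early, SRF and MRTF, and mitosis genes over the day 3 mean (vertical axis), for each of the 9 libraries (horizontal axis). Each marker is 1 library; on day 10, replicate 3 has the lowest Ccn1 (0.38) and Ccn2 (4.19), while immediate early genes stand at -0.32 and mitosis genes at -2.31 in the same library.

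The day 10 library with the least Ccn1 and Ccn2 was also the lowest of that day in some other lists, but not in all. In day 10 replicate 3, the 8 immediate early genes (such as Fos and Junb, which respond to growth factors within minutes) summed to 608 CPM, against 1516 and 1322 CPM in replicates 1 and 2. The 12 genes of the SRF and MRTF list, many of which respond to the state of the actin skeleton, summed to 1263 CPM against 1957 and 1718 CPM. The 6 mitosis genes summed to 394 CPM against 921 and 785 CPM. In contrast, the 16 other YAP and TAZ target genes described below summed to 3054 CPM against 2385 and 2457 CPM. The 5 TGF-beta genes lay in between, at 1152 CPM against 1081 and 1303 CPM. Mesenchymal markers (20790 against 21700 and 24050 CPM) and endothelial markers (136 against 128 and 126 CPM) differed less. The part of these differences in the Ccn1 and Ccn2 levels was not tested. The 10 genes did not all share the order of Ccn1 and Ccn2, since day 10 replicate 3 had the highest Crim1, Amotl1, Amotl2 and Lats2 levels of day 10.

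Ankrd1, a cardiac and muscle ankyrin repeat protein and a standard YAP target in cultured cells (Entrez 107765, chr19:36111965-36119844, minus strand), was scarce on every day. It had 0.930, 0.789 and 0.397 CPM on day 3, 1.87, 0.494 and 1.01 CPM on day 7, and 3.12, 0.360 and 1.13 CPM on day 10. The days overlapped throughout, and replicate 1 was the highest library on each of them. The log2 changes of 0.69 to day 7 (SE 0.74, adjusted p = 0.486) and 1.07 to day 10 (SE 0.73, adjusted p = 0.238) did not pass the test. Without day 10 replicate 1 the change to day 10 was 0.09 (adjusted p = 0.914).

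Crim1, a membrane protein with cysteine-rich repeats (Entrez 50766, chr17:78200233-78376592, plus strand), had 21.8, 22.9 and 20.3 CPM on day 3, 25.7, 20.6 and 20.0 CPM on day 7 and 28.4, 23.8 and 28.9 CPM on day 10. The day 10 libraries were all above the day 3 libraries, by a small margin. Its log2 change was 0.03 to day 7 (adjusted p = 0.871) and 0.32 to day 10 (SE 0.12, adjusted p = 0.044). The call at day 10 was lost in 10 of 19 alternatives, with adjusted p up to 0.139, including 6 of the 9 that leave out 1 library (each of day 3, day 7 replicate 2, and day 10 replicate 1 or 3). The opposite-strand gene Fez2 overlaps the end of Crim1, and reads of the pair cannot be told apart there.

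The junction and feedback genes split. Lats2 (Entrez 50523, chr14:57689662-57746212, minus strand), a kinase that inhibits YAP and is itself a YAP target, had 51.4, 50.2 and 54.0 CPM on day 3. It had 102, 86.1 and 92.6 CPM on day 7 and 87.4, 94.3 and 113 CPM on day 10. All later libraries were above day 3, and days 7 and 10 overlapped. The log2 change was 0.85 to day 7 (SE 0.10, adjusted p = 0.000158) and 0.92 to day 10 (SE 0.10, adjusted p = 4.74e-05). Its gene model overlaps that of Gm49361 on the same strand, and how shared reads were counted is not given in the sources used here.

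Amotl2, a junction protein of the angiomotin family (Entrez 56332, chr9:102717091-102733418, plus strand), had 43.8, 51.5 and 53.5 CPM on day 3, 104, 78.4 and 83.7 CPM on day 7, and 66.2, 54.5 and 88.8 CPM on day 10. The day 7 libraries were all above day 3, and so were those of day 10, where the lowest library was just above the highest of day 3. The log2 change was 0.84 to day 7 (SE 0.18, adjusted p = 0.00454) and 0.49 to day 10 (SE 0.18, adjusted p = 0.0364). The change to day 10 lost its call without day 3 replicate 1 (adjusted p = 0.115), without day 3 replicate 2 (0.0628), without day 10 replicate 3 (0.104) and with library size alone as the scaling (0.0686).

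Ajuba, a LIM-domain junction protein that inhibits LATS (Entrez 16475, chr14:54567469-54577661, minus strand), fell. It had 41.3, 38.4 and 43.5 CPM on day 3, 24.7, 27.8 and 30.8 CPM on day 7 and 33.01, 33.05 and 25.2 CPM on day 10. All later libraries were below day 3. The log2 change was -0.56 to day 7 (SE 0.12, adjusted p = 0.00471) and -0.43 to day 10 (SE 0.12, adjusted p = 0.0121).

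Amotl1, the third angiomotin gene (Entrez 75723, chr9:14541966-14662974, minus strand), had 297, 354 and 318 CPM on day 3, 381, 327 and 413 CPM on day 7 and 325, 372 and 562 CPM on day 10. The libraries overlapped in both comparisons with day 3. The log2 changes of 0.21 to day 7 (adjusted p = 0.395) and 0.38 to day 10 (adjusted p = 0.109) did not pass the test. Without day 10 replicate 1 the change to day 10 did (0.54, adjusted p = 0.0248). The noncoding genes Gm34263 and 4930584E12Rik overlap its model. By day 7, Amot fell and Amotl2 rose, while Amotl1 did not pass the test. Per kilobase, Amot was above Amotl1 and Amotl2 on day 3 (98.8, 32.1 and 7.89 CPM per kilobase), and below Amotl1 on day 10 (15.9 against 41.7).

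Between day 3 and day 10, 8 of the 10 genes passed the test, 6 higher (Wwtr1, Ccn1, Ccn2, Crim1, Amotl2 and Lats2) and 2 lower (Yap1 and Ajuba). Among all genes tested, 56.7% passed in that comparison. In that comparison 29.5% of all genes rose and 27.2% fell. For Ccn2, 68 genes (0.455%), Ccn2 included, had a log2 change at least as large, called or not. The median log2 change of the 10 was 0.71, against 0.0018 for all genes tested. For 6 genes the day 10 libraries all lay above day 3, for 2 all below and for 2 they overlapped, against 64.4% of all genes without overlap.

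Between day 7 and day 10 none of the 10 genes passed edgeR's quasi-likelihood test, against 8.51% of all genes tested (4.41% higher and 4.1% lower). The libraries of these days overlapped for all 10, while 26% of all genes tested had no overlap. DESeq2 called 0 of the 10, and 2115 of the 14888 genes it tested. At an unadjusted p under 0.05 in edgeR's test, 2 of the 10 passed. The share of all genes at that threshold was not counted, so this number has nothing to be read against. Whether the later step (day 10 minus day 7, 3 days) differed from the earlier one (day 7 minus day 3, 4 days) was tested directly, since a change that passes in 1 step and misses in the other does not show a difference. The later step was lower for 4 genes: Ccn2 (log2 difference -5.71, SE 0.49, adjusted p = 0.000338), Wwtr1 (-0.93, SE 0.19, adjusted p = 0.0154), Lats2 (-0.78, SE 0.17, adjusted p = 0.0239) and Amotl2 (-1.18, SE 0.30, adjusted p = 0.0415). Among all genes tested, 8.03% passed this test, 5.96% lower in the later step and 2.06% higher. Both steps use the day 7 libraries. The call for Wwtr1 was lost in 2 of 18 alternatives, without day 7 replicate 1 (adjusted p = 0.0811) or 2 (0.0748). The call for Lats2 was lost in 4, without day 3 replicate 1 (0.0653) or 2 (0.0634) and without day 7 replicate 1 (0.123) or 3 (0.0686), and that for Amotl2 in 9, including each library of days 3 and 7 and day 10 replicate 1 left out (up to 0.186). Ccn1 (-2.72, adjusted p = 0.0631) was called in 6, among them without day 10 replicate 1 (0.00193) or 3 (0.023). Ajuba went the other way (0.69, adjusted p = 0.0852) and was called higher in 3, with DESeq2 (0.0342), without day 10 replicate 3 (0.0108) and without that library and day 3 replicate 2 together (0.019).

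**Figure D4:**
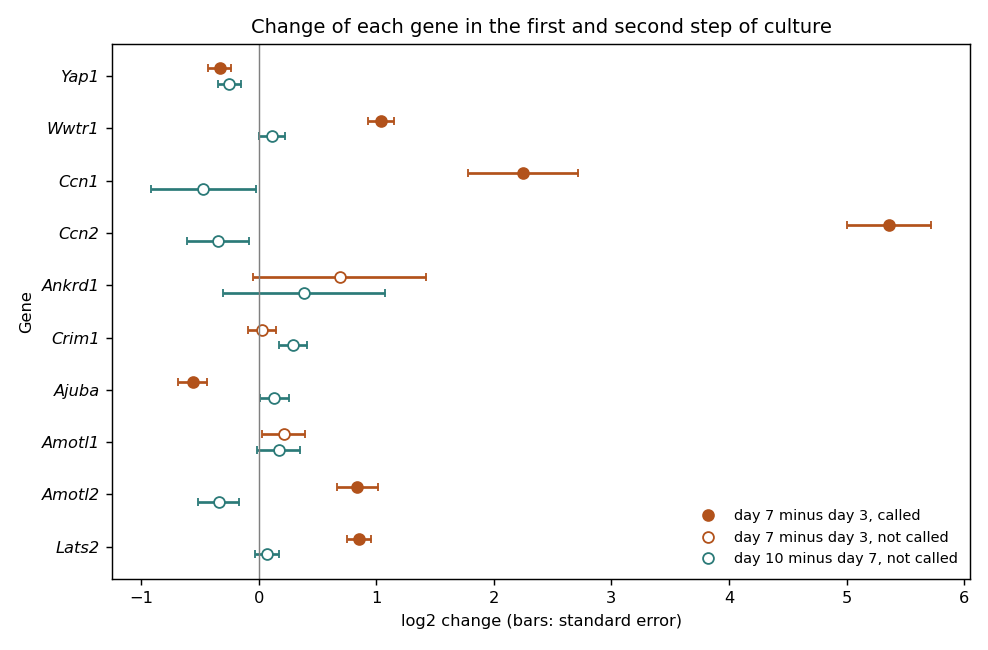
Log2 change of each of the 10 genes from day 3 to day 7 and from day 7 to day 10, with error bars of 1 standard error from edgeR's quasi-likelihood fit. Filled markers passed the test at an adjusted p under 0.05; 7 of the 10 genes do so in the first step and 0 in the second.

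The 16 other YAP and TAZ target genes, listed from knowledge of the pathway, were examined beside the members. By day 7, 9 rose and 2 fell, against 22.8% and 19% of all genes tested, and by day 10, 7 rose and 2 fell, against 29.5% and 27.2%. Between days 7 and 10 none passed edgeR's quasi-likelihood test. Myof was called there by DESeq2 (0.64, adjusted p = 0.0421) and by edgeR without day 10 replicate 2 (0.84, adjusted p = 0.0339), and Igfbp3 without day 10 replicate 3 (-1.54, adjusted p = 0.0417). Myof, a membrane repair protein, went from 15.4 ± 0.397 CPM on day 3 to 40.1 ± 8.52 and 62.3 ± 21.6, and rose by 2.02 on the log2 scale to day 10 (SE 0.24, adjusted p = 9.95e-05). Gadd45a, a growth arrest and DNA damage protein, went from 7.75 ± 0.0516 to 23.5 ± 3.88 and 30.5 ± 8.27 CPM (log2 change 1.98, adjusted p = 2.07e-05). In the other direction, Igfbp3, an insulin-like growth factor binding protein, went from 1854 ± 252 to 760 ± 236 and 361 ± 196 CPM (log2 change -2.36, adjusted p = 0.000666), and Fjx1 from 107 ± 24.3 to 37.7 ± 6.28 and 46.8 ± 24.6 CPM (log2 change -1.20, adjusted p = 0.0122). The call for Fjx1 was lost without day 10 replicate 3 (adjusted p = 0.0826). The median log2 change of this list to day 7 was 0.55, and to day 10 it was 0.24.

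The Ccn genes are also known to respond to SRF, TGF-beta and growth factor signals, so lists for these were followed as well. Of the 12 SRF and MRTF genes, 6 rose and 2 fell by day 7, and 7 rose and 3 fell by day 10, beside the same shares of all genes. The falls were those of the factors themselves, Mrtfa and Mrtfb by day 7 and also Srf by day 10, and all of the rises were of target genes. Tagln, an actin-binding smooth muscle protein, went from 10.8 ± 1.58 CPM on day 3 to 128 ± 19.4 and 173 ± 69.6 CPM (log2 change 4.01 to day 10, SE 0.32, adjusted p = 8.32e-06). All 5 TGF-beta genes rose by day 7, against 22.8% of all genes tested. From day 7 to day 10, 3 of them (Ltbp2, Smad7 and Skil) fell, against 4.1% of all genes tested. The later calls for Smad7 (adjusted p = 0.0297) and Skil (0.0277) were both lost in the fit of those days alone (0.0754 and 0.0822), without day 3 replicate 1 (0.0524 and 0.0526), without day 7 replicate 1 (0.0769 and 0.0694) or 2 (0.118 and 0.11) and without day 10 replicate 1 (0.0578 and 0.0555). Smad7 also lost its call without day 10 replicate 2 (0.0593). The call for Ltbp2 was kept in all 19 alternatives. Ltbp2, a matrix protein, went from 0.799 ± 0.1002 CPM on day 3 to 20.2 ± 4.68 on day 7 and 4.07 ± 1.118 on day 10. From day 7 to day 10 its log2 change was -2.32 (SE 0.23, adjusted p = 0.00151), and that of Ccn2 was -0.35 (SE 0.26, adjusted p = 0.469). Of the 8 immediate early genes, 6 rose by day 7 (Fos, Fosb, Egr1, Ier2, Jun and Junb) and none fell, against 22.8% and 19% of all genes tested. Their median log2 change was 1.03. By day 10, 2 of the 8 (Fosb and Junb) were above day 3, a share no larger than the 29.5% of all genes tested that rose. From day 7 to day 10 none of the 8 passed edgeR's test, against 8.51% of all genes tested. The part of these lists in the levels of Ccn1 and Ccn2 was not tested.

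**Figure D5:**
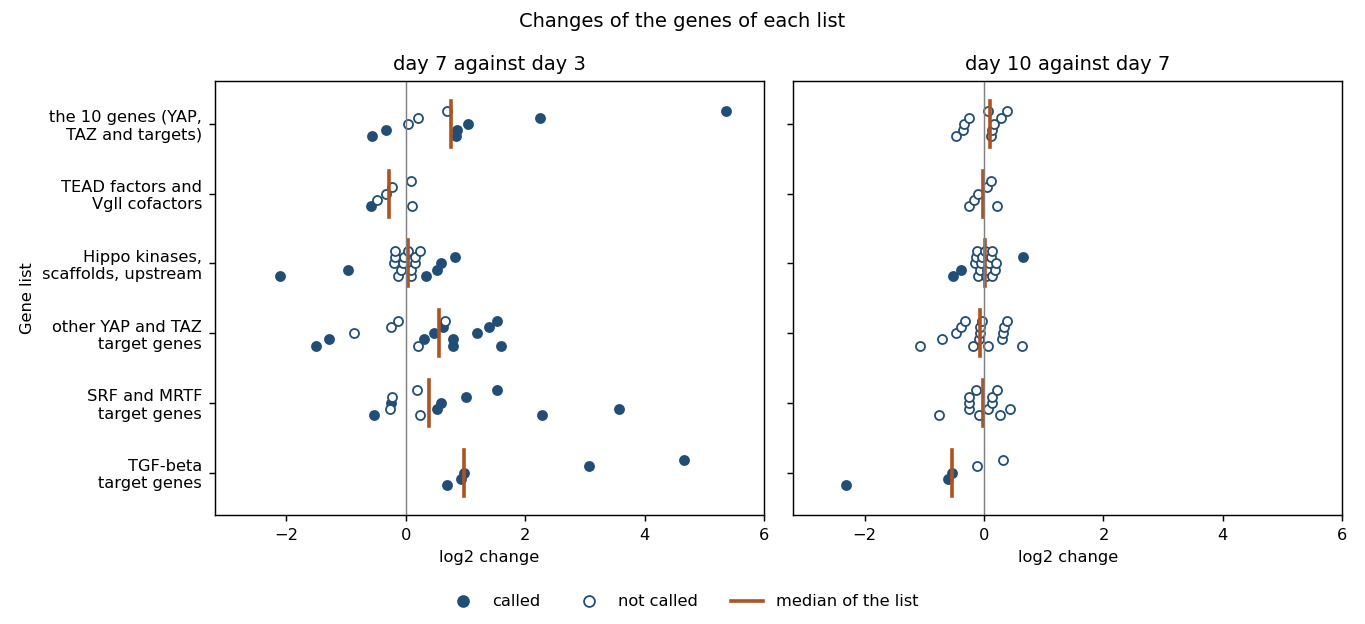
Log2 change of each tested gene of 6 lists from day 3 to day 7 (left) and from day 7 to day 10 (right). Each circle is 1 gene, filled where called at an adjusted p under 0.05, and the bar is the median of the list; filled circles are frequent on the left and few on the right.

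The genes whose profiles lay closest to each member were found by the root mean square difference of centred log2 CPM over the 9 libraries. For Ccn2 these were Mgp (0.392), Dmp1 (0.476) and Klk10 (0.514), and for Ccn1 they were Hapln1 (0.194), Klf2 (0.222) and Actg2 (0.314). For Wwtr1 they were Tusc1 (0.0529), Rhoj (0.0698) and Cd81 (0.0733), for Yap1 Zadh2 (0.0435), Uba2 (0.0513) and Lrrc40 (0.0522), and for Lats2 they included Trip10 (0.0331) and Dact1 (0.0603). None of the 10 genes was among the 3 closest of another. The closest genes depend on the measure, and most left the first 3 places when likeness was taken over day means or by Pearson correlation.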

How the data were processed

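Poly(A) RNA of 9 pneumosphere libraries was sequenced with the Illumina TruSeq RNA kit, per the labels' protocols. The deposited table holds whole-number counts per gene with Entrez IDs, without normalisation. Per the submitters' processing notes, the authors counted reads with featureCounts on mm10. Aligner, gene annotation, strand setting and the handling of multi-mapping reads were not given in the sources used here. Each of the 9 columns matched 1 sample by name. Of 27179 IDs, 25275 were named from RefSeq and 18 from GENCODE M21, and 1886 have no name.

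Genes were filtered with filterByExpr (14940 kept) and tested in edgeR 4.0.16 (R 4.3.3) with TMM factors and a robust quasi-likelihood fit to the 9 libraries together (biological coefficient of variation 0.146). Adjusted p-values are Benjamini-Hochberg over all genes tested, with a threshold of 0.05, and each SE was derived from the log2 change and its F statistic. Levels are TMM-normalised CPM, and levels per length use merged exons. Alternatives covered other scaling factors, filters, DESeq2 1.42.0, a replicate block, the groups in the fit and each library left out. The fit was tested on simulated data.

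The members and lists were chosen with earlier results of these data known. The genes named were the 10 members, the TEAD and core Hippo genes, the 3 largest called rises and falls per list and comparison, and the 3 genes closest to each member. Not all genes that this rule allows are printed, and 1 of them is not reported here. The labels do not state whether libraries of the same day are separate cultures or litters, so p-values measure only the spread between these samples. The chi-square statistic per degree of freedom between replicates was 8.05 to 127, so no pair agreed within counting noise. The largest values were those of day 3 replicate 2, 127 against replicate 1 and 109 against replicate 3. Day 3 replicates 1 and 3 gave the smallest, 8.05. The upper limit in CPM for a gene without counts covers counting error only, while each SD and SE includes the spread between libraries.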

Additional observations from a re-analysis of the deposited data

How the results depend on the processing

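Of 30 results on the 10 genes in the comparisons of days, 24 kept their side of the threshold in all 19 alternatives, and no alternative reversed the direction of a called result. The exceptions were Crim1 and Amotl2 from day 3 to day 10, Yap1 from day 3 to day 7, Amotl1 from day 3 to day 10, and Ccn1 and Amotl2 from day 7 to day 10. Leaving out 1 library at a time, the number of the 10 genes called was 6 to 8 from day 3 to day 10, 6 to 7 from day 3 to day 7, and 0 to 1 from day 7 to day 10. The 1 was Ccn1 without day 10 replicate 1 and Amotl2 without day 10 replicate 3 (log2 change -0.56, adjusted p = 0.033).

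Over all genes, the count called from day 7 to day 10 (1271) was the least stable: 2115 with DESeq2, 290 with the fit of those days alone, and 304 to 1548 with 1 library left out. The count for the later step against the earlier one (1199) ranged from 552 to 1817 with 1 library left out. With library size alone as the scaling, 39.3% of the genes called from day 7 to day 10 were higher, against 51.8% with TMM factors. Taking the longest transcript as the length put Yap1 at 79.3, 63.0 and 53.0 CPM per kilobase on days 3, 7 and 10, since that transcript is shorter than the merged exons. The cause of the other shifts was not tested.

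The replicate numbers of the labels were not taken to pair the samples: no label says what a number marks, and not every same-numbered pair correlated above 0.1. Correlations of same-numbered samples' deviations from their group means ran from -0.0694 to 0.433, with 5 of 9 over 0.1, and those of differently numbered samples from -0.356 to 0.221, with 2 of 18 over 0.1. The column names also run in sequence within a number. With the replicate block, 8565, 6319 and 1374 genes were called from day 3 to 10, day 3 to 7 and day 7 to 10, and 8, 7 and 0 of the 10 genes. Not every sample correlated best with its own number.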
